A study of Danio rerio with 8 samples.

Results

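The CSF1 and IL34 axis joins the ligands CSF1 and IL34 to their shared receptor CSF1R, and its zebrafish genes were followed here through 4 fractions sorted from fractured scales. The genes were chosen by name, with *csf1ra* (ENSDARG00000102986) and *csf1rb* (ENSDARG00000053624) as the receptors and *csf1a* (ENSDARG00000075343), *csf1b* (ENSDARG00000068263) and *il34* (ENSDARG00000091003) as the ligands, which makes 5 of the 32057 genes measured. Of these, 4 were among the 14006 genes that passed a filter on low values (at least 1 RPM, or mapped reads scaled to a common library total, in at least 2 libraries), and *csf1rb* was not.

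RNA-seq was performed once on scales of adult *trap:GFP*; *osterix:mCherry* double-transgenic zebrafish, labelled wild type, at 1 day post-fracture (dpf). In these fish GFP is driven by an upstream region of the zebrafish *trap* (*acp5a*) gene, which marks osteoclasts (OCs), and mCherry by an upstream region of the medaka *osterix* (*sp7*) gene, which marks osteoblasts (OBs). The fractions are named by their labels as OB (GFP– mCh+ with high Hoechst stain), pOC (precursor OCs, GFPlow mCh+ with high Hoechst stain), mOC (mature OCs, GFPhigh with high Hoechst stain) and EV (OB-derived extracellular vesicles, mCh+ particles with low Hoechst stain), each with 2 libraries. The paper proposes that its GFPlow cells, here pOC, are mainly monocytes and macrophages. It also describes cells in that gate that look like OBs holding GFP fragments. EV was gated on mCh and Hoechst stain, and the cells from which its RNA came were not tested here. No fraction from unfractured scales was among the libraries, so the values compare fractions and not fracture with rest.

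CSF1R is a receptor tyrosine kinase that macrophages and OCs need for survival and differentiation. CSF1 and IL34 have little sequence in common, yet both bind it, and OBs are a known source of CSF1 in mammalian bone. Zebrafish keep paralogs of the receptor and of CSF1, and *csf1ra* is also required by xanthophores, the yellow pigment cells of the skin.

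Both files of OB held the same values for all 32057 genes, whereas the replicates of pOC, mOC and EV shared 10858, 12646 and 15301 values. OB was therefore counted as 1 library, its spread was assumed to equal that measured in the other fractions, and 7 libraries of 11800000 to 24400000 reads were analysed. Each fraction was sorted as a bulk sample, so that fewer cells of a type and less RNA per cell cannot be told apart. The paper saw mCherry+ particles inside most *trap:GFP*+ cells and proposes that OCs take up OB-derived vesicles. The part of RNA taken up in this way in the pOC and mOC levels was not tested. It also proposes that OCs of several stages may be present among GFPhigh cells, here mOC. The OB gene *sp7* was low but highest in OB, at 5.42 RPM in OB, 0.41 and 2.09 in pOC, 0.62 and 0.17 in mOC, and 0 and 0.30 in EV. The OB gene *bglap* was listed at 0 in every library. By qPCR, however, the paper reports *osterix* (*sp7*) and *osteocalcin* (*bglap*) as enriched in its mCh+ fraction, here OB. The gene *acp5*, whose promoter set the GFP gates, was at 12.5 RPM in OB, 144 and 161 in pOC, 1132 and 1538 in mOC and 35.6 and 43.2 in EV. The EV libraries stood apart from each other, with a summed level of 8 melanophore marker genes of 57.2 and 932 RPM.

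Receptor RNA was carried mainly by the pOC and mOC fractions. The level of *csf1ra* was 32.8 RPM in OB, 176 and 197 in pOC, 173 and 201 in mOC, and 92.2 and 91.9 in EV. The pOC and mOC libraries overlapped, both EV libraries lay below all 4 of them, and OB was lowest. Replicates differed by 1.12-fold in pOC, 1.16-fold in mOC and 1.00-fold in EV. Over the 2 libraries of a fraction the mean ± s.d. was 186 ± 15.1 RPM in pOC, 187 ± 20.03 in mOC and 92.0 ± 0.233 in EV, which is 5.69, 5.71 and 2.81 times the OB level.

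**Figure D1:**
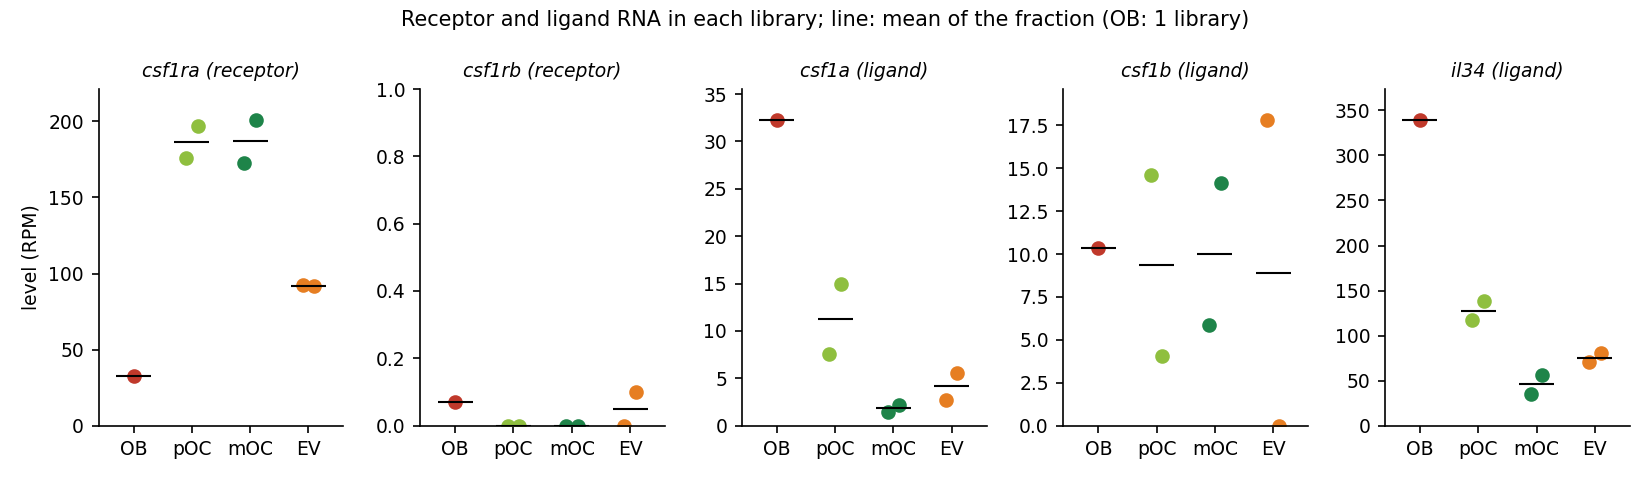
Level of each receptor and ligand gene (RPM, linear axes from 0, a different scale per panel) in the 7 libraries, with 1 point per library and a line at the mean of each fraction. *csf1ra* was highest in pOC and mOC, *il34* and *csf1a* were highest in OB, *csf1b* spread as widely within fractions as between them, and *csf1rb* did not exceed 0.1 RPM.

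Fractions were compared with limma on log2(RPM + 1), a scale that understates the fold change of genes at a few RPM, and a difference counted as called where its adjusted p (Benjamini-Hochberg, over all tested genes) was under 0.05 and its size on this scale over 1. For *csf1ra* the difference of mOC from OB was 2.47 (SE 0.25, adjusted p = 0.0027), and it was called in all 15 alternative analyses run, which left out single libraries or changed the scaling, pseudocount, filter or tool. The difference of pOC from OB was 2.47 (SE 0.25, adjusted p = 0.021) and that of EV from OB 1.46 (SE 0.25, adjusted p = 0.0288), both called. Without pOC replicate 1, pOC replicate 2, mOC replicate 1 or mOC replicate 2, the adjusted p of the first became 0.378, 0.265, 0.109 and 0.103, and that of the second 0.122, 0.12, 0.0853 and 0.0846. edgeR and DESeq2 were run without the pOC libraries, so a change of tool is here also a change of libraries. In edgeR the difference of EV from OB was 1.57 with an adjusted p of 0.162, whereas DESeq2 kept the call. Over all genes edgeR called 0 in this comparison and DESeq2 1060.

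Between pOC and mOC no difference of *csf1ra* was found. The log2 fold change of mOC against pOC was 0.00 (SE 0.21, adjusted p = 0.996), with a 95% interval from -0.48 to 0.49. A difference within this interval is not excluded. The interval is not the smallest difference that could be called, since a call also needs a size over 1. EV was lower than mOC by a log2 fold change of -1.01 (SE 0.21, adjusted p = 0.0234), which was called. The value against pOC was also -1.01 (SE 0.21, adjusted p = 0.111), which was not called. Their unadjusted p-values in limma were 0.00164 and 0.00167, so only the adjustment over all genes set them apart. The EV to mOC call was lost without pOC replicate 1, pOC replicate 2, mOC replicate 1 or mOC replicate 2 (adjusted p = 0.0812, 0.0806, 0.119 and 0.172), with edgeR (adjusted p = 0.0979), and with a pseudocount of 5 RPM, where the fold change was -0.98. The EV to pOC value was called without EV replicate 1 (adjusted p = 0.0262) or EV replicate 2 (adjusted p = 0.0371).

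Set against the mean of the other 3 fractions, *csf1ra* was lower in OB by -2.13 (SE 0.22, adjusted p = 0.00801) and higher in mOC by 1.16 (SE 0.17, adjusted p = 0.0073), both called. In pOC the value was as large, 1.16 (SE 0.17, adjusted p = 0.0728), and did not pass. The unadjusted p-values of mOC and pOC in limma were 0.000271 and 0.000276, so only the adjustment over all genes set them apart. In EV the value was -0.19 (SE 0.17, adjusted p = 0.551). The OB call was lost without pOC replicate 1, pOC replicate 2 or mOC replicate 2 (adjusted p = 0.104, 0.0786 and 0.0523), and the mOC call without pOC replicate 1, mOC replicate 1 or mOC replicate 2 (adjusted p = 0.0538, 0.0787 and 0.117). The pOC value passed without EV replicate 1 (adjusted p = 0.00988) or EV replicate 2 (adjusted p = 0.00776) and after quantile normalization (adjusted p = 0.0434).

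The paralog *csf1rb* was close to absent from the reads. It was at 0.07 RPM in OB, which is 1 read, at 0.1 RPM in EV replicate 2, which is 2 reads, and was listed at 0 in the other 5 libraries. All values lay under the level of 3 reads, which was 0.123 to 0.254 RPM depending on the library and covers counting error only. The receptor RNA that could be measured in these fractions was therefore that of *csf1ra*, and *csf1rb* did not exceed the level of 3 reads in any library.

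Ligand RNA of *il34* and *csf1a* was highest in OB, where *csf1ra* was lowest. The level of *il34*, a ligand that in mammals is best known from skin and brain, was 340 RPM in OB, 117 and 138 in pOC, 34.9 and 56.7 in mOC, and 70.3 and 81.0 in EV. No libraries of different fractions overlapped, and the order was OB, pOC, EV, mOC. The mean ± s.d. over 2 libraries was 127 ± 14.8 RPM in pOC, 45.8 ± 15.4 in mOC and 75.6 ± 7.54 in EV. The OB level was 2.67 times that of pOC, 4.49 times that of EV and 7.42 times that of mOC.

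For *il34* the difference of mOC from OB was kept in nearly all alternatives. It was -2.90 (SE 0.35, adjusted p = 0.00473) and was called in 14 of 15 alternatives, the exception being edgeR with -2.75 and an adjusted p of 0.052. EV was lower than OB by -2.16 (SE 0.35, adjusted p = 0.0244) and mOC lower than pOC by -1.49 (SE 0.28, adjusted p = 0.0348), both called. The EV to OB call was lost without pOC replicate 1, pOC replicate 2, mOC replicate 1 or mOC replicate 2 (adjusted p = 0.118, 0.116, 0.0605 and 0.0589) and with edgeR (adjusted p = 0.161), and the mOC to pOC call was lost without the same libraries (adjusted p = 0.258, 0.334, 0.225 and 0.0979) and without a filter on low values (adjusted p = 0.0928).

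Neighbours in the order of *il34* did not pass. The value of pOC against OB was -1.41 (SE 0.35, adjusted p = 0.13, 95% interval -2.24 to -0.59), that of EV against pOC -0.74 (SE 0.28, adjusted p = 0.255, interval -1.41 to -0.07) and that of EV against mOC 0.75 (SE 0.28, adjusted p = 0.135, interval 0.08 to 1.42). The first was called without EV replicate 1 (adjusted p = 0.0255) or EV replicate 2 (adjusted p = 0.0245). Against the mean of the other fractions *il34* was higher in OB by 2.16 (SE 0.31, adjusted p = 0.0155) and lower in mOC by -1.71 (SE 0.24, adjusted p = 0.00605), both called, and the values of pOC, 0.27 (adjusted p = 0.888), and EV, -0.72 (adjusted p = 0.121), were not. The OB call was lost without pOC replicate 1, pOC replicate 2 or mOC replicate 2 (adjusted p = 0.117, 0.102 and 0.0523), and the mOC call without mOC replicate 1 (adjusted p = 0.078).

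The CSF1 gene *csf1a* followed a similar order at a lower number of reads. Its level was 32.3 RPM in OB, 7.57 and 14.9 in pOC, 1.47 and 2.20 in mOC, and 2.74 and 5.55 in EV. OB was highest and no libraries of different fractions overlapped, but replicates differed by 1.97-fold in pOC, 1.5-fold in mOC and 2.03-fold in EV. The reads behind these values were 483 in OB, 19 and 26 in mOC, and 56 and 112 in EV. The OB level was 2.87 times the mean of pOC (11.2 ± 5.19 RPM), 7.79 times that of EV (4.14 ± 1.99) and 17.6 times that of mOC (1.83 ± 0.516; s.d., n = 2 each).

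Of the *csf1a* differences, that of mOC from OB, -3.57 (SE 0.65, adjusted p = 0.0195), and that of mOC from the average of the rest, -2.15 (SE 0.45, adjusted p = 0.0263), were called. Without pOC replicate 1, pOC replicate 2, mOC replicate 1 or mOC replicate 2 the adjusted p of the first became 0.0709, 0.0716, 0.136 and 0.113, and that of the second 0.0747, 0.105, 0.258 and 0.178. The first was also lost with edgeR (adjusted p = 0.101) and the second without a filter on low values (adjusted p = 0.0636). *csf1a* is among the OB-related genes that the study picked out from these same libraries, so its OB level is no independent evidence of the direction.

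For *csf1a* the value of OB against the average of the rest, 2.61 (SE 0.57, adjusted p = 0.0534), missed the threshold, as did EV against OB, -2.75 (SE 0.65, adjusted p = 0.0602), mOC against pOC, -2.05 (SE 0.53, adjusted p = 0.0864), and pOC against OB, -1.51 (SE 0.65, adjusted p = 0.372). The first was called without EV replicate 1 (adjusted p = 0.00678) or EV replicate 2 (adjusted p = 0.00478), with a pseudocount of 5 RPM (adjusted p = 0.0265) and after quantile normalization (adjusted p = 0.0439). The second was called without EV replicate 1 (adjusted p = 0.0204) or EV replicate 2 (adjusted p = 0.00906) and with a pseudocount of 5 RPM (adjusted p = 0.0313), and the third without EV replicate 1 (adjusted p = 0.0104) or EV replicate 2 (adjusted p = 0.011). Values of *csf1a* in EV against pOC, -1.24 (adjusted p = 0.302), and against mOC, 0.82 (adjusted p = 0.368), did not pass either.

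The second CSF1 gene, *csf1b*, could not be placed in any fraction. Its level was 10.4 RPM in OB, 14.6 and 4.07 in pOC, 5.87 and 14.1 in mOC, and 17.8 and 0 in EV. The fractions overlapped throughout, with a 3.59-fold difference between the pOC libraries and a 2.41-fold difference between the mOC libraries. EV replicate 1 held 364 reads of the gene and EV replicate 2 none, which allows a level of up to 0.149 RPM there.

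None of the 10 comparisons called *csf1b* in limma and none reached an unadjusted p under 0.05. Against the mean of the other fractions its values were 0.63 (SE 1.41) in OB, 0.16 (SE 1.11) in pOC, 0.42 (SE 1.11) in mOC and -1.22 (SE 1.11, adjusted p = 0.538) in EV. The EV value was decided by single libraries, being -3.34 (adjusted p = 0.00723, called) without EV replicate 1 and 0.90 (adjusted p = 0.331) without EV replicate 2. Without EV replicate 1 EV was also called lower than OB (-3.51, adjusted p = 0.0168), pOC (-3.15, adjusted p = 0.0233) and mOC (-3.35, adjusted p = 0.00816). The 9 keratinocyte marker genes matched had a summed level of 8198 RPM in OB, 6717 and 5715 in pOC, 6310 and 8466 in mOC, and 9815 and 2627 in EV, so that the library with most *csf1b* also had most keratinocyte RNA and the library with none had the least. In every fraction with 2 libraries the one with more *csf1b* had the higher keratinocyte sum, and the part of this in the *csf1b* values was not tested.

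**Figure D2:**
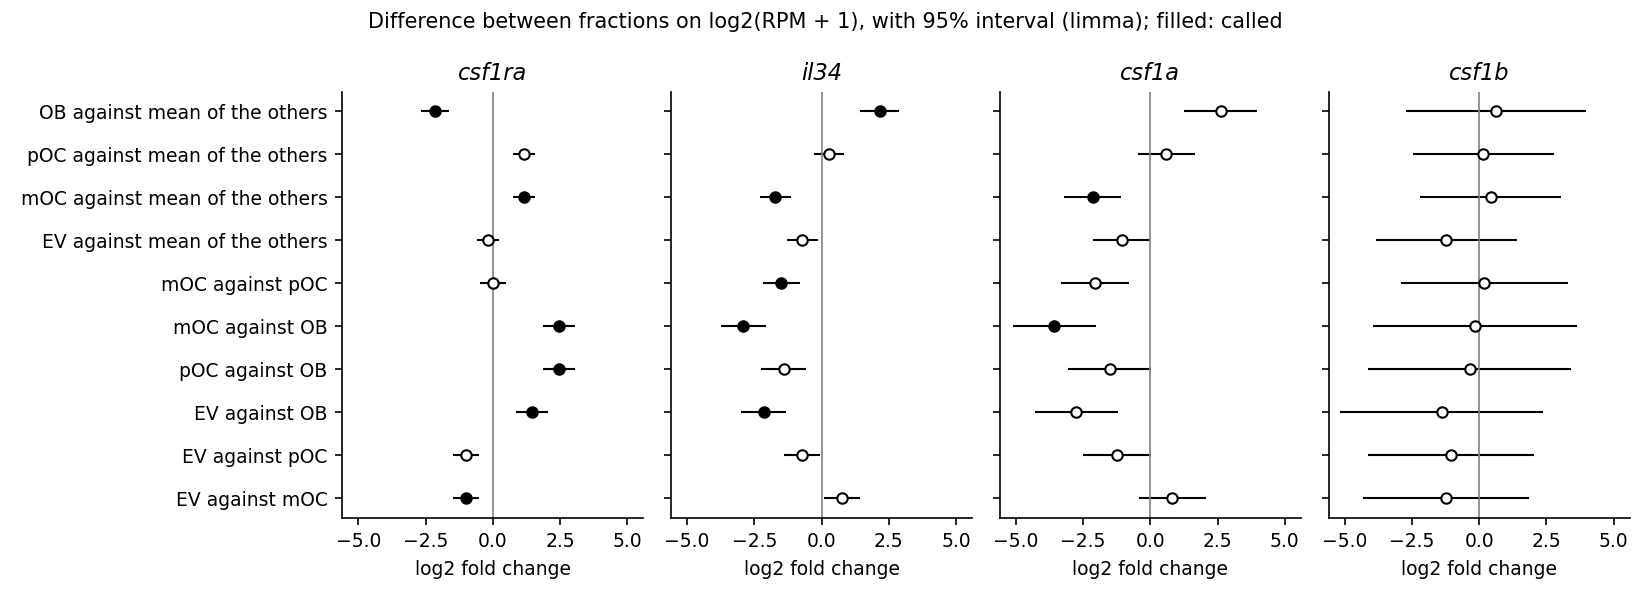
Log2 fold change of *csf1ra*, *il34*, *csf1a* and *csf1b* in the 10 comparisons, on log2(RPM + 1), with the 95% interval from limma and filled points for called values. *csf1ra* and *il34* lie on opposite sides of 0 in mOC against OB, at 2.47 and -2.90, and every interval of *csf1b* crosses 0.

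Counts of called members stand beside the share of all tested genes called in the same comparison. In mOC against OB 3 of the 4 tested members were called, *csf1ra* higher and *il34* and *csf1a* lower, where 7.88% of all genes were called. The counts against the mean of the other fractions were 2 of 4 in OB (4.19% of all genes), 3 of 4 in mOC (9.64%), 0 in pOC (0.243%) and 0 in EV (6.35%). Of the other pairs, EV against OB called 2 of 4 (5.05%), mOC against pOC 1 (4.42%), pOC against OB 1 (1.39%), EV against mOC 1 (11.7%) and EV against pOC 0 (0.0357%). In limma 1 member each in pOC and EV against the mean of the others, *csf1ra* and *il34*, and 2 members in EV against pOC, *il34* and *csf1ra*, had an unadjusted p under 0.05, and these 3 comparisons were not run in another tool.

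The ratio of a ligand to *csf1ra* within a library restates the levels given above and is no further evidence. It had to be highest in OB, where *il34* and *csf1a* were highest and *csf1ra* was lowest. The ratio of *il34* to *csf1ra* was 10.4 in OB, 0.665 and 0.699 in pOC, 0.202 and 0.282 in mOC, and 0.762 and 0.881 in EV. It was 11.8 to 51.3 times higher in OB than in any other library, and EV lay slightly above pOC. A ratio of 1 has no meaning of its own, because gene length and priming differ between the genes and were not corrected, and only its change across fractions can be read.

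The ratio of *csf1a* to *csf1ra* was 0.986 in OB, 0.0431 and 0.0756 in pOC, 0.0085 and 0.0109 in mOC, and 0.0297 and 0.0604 in EV. The OB ratio was 13.0 to 116 times higher than the others, and the mOC libraries were lowest. EV and pOC overlapped in this ratio. The balance of both ligands with each other moved less, since *il34* over *csf1a* was 10.5 in OB and ran from 9.25 to 25.8 in the other 6 libraries.

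**Figure D3:**
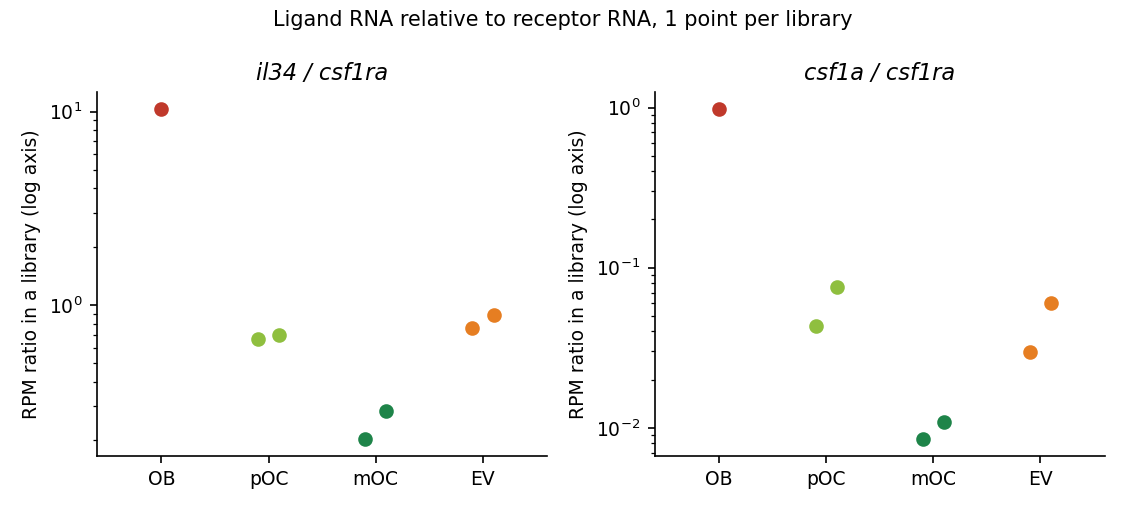
Ratio of *il34* to *csf1ra* (left) and of *csf1a* to *csf1ra* (right) in each of the 7 libraries, as RPM over RPM on log axes. OB stands highest in both panels, at 10.4 and 0.986, and the mOC libraries lowest.

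The summed level of macrophage marker genes moved with the receptor, but many of the single genes did not. The 22 macrophage marker genes had a summed level of 807 RPM in OB, 2762 to 3386 in pOC, 2664 to 3223 in mOC and 2240 to 2277 in EV, with 15, 17, 12 and 18 of them above 3 reads in every library of the fraction. As for *csf1ra*, pOC and mOC overlapped, EV lay below them and OB was lowest. Most of the sum came from *lcp1* and *cd68*, and other markers had another order. Of the 17 macrophage marker genes tested in mOC against pOC, 7 were lower and 0 higher, with a median of -2.10 against -0.15, where 3.66% of all tested genes were called lower and 0.757% higher. These 7 calls were lost when any 1 of the pOC or mOC libraries was left out, and more were gained when an EV library was. Calls over all genes fell and rose in the same way. The count was 4 with no filter, where 0.962% of all genes were called in either direction. Against OB 3 of the 17 were higher and 0 lower in pOC, with a median of 1.91 against -0.03. In EV 4 were higher and 0 lower (1.26 against -0.18), and in mOC 3 were higher and 1 lower (-0.27 against -0.15). Over all genes 1.28%, 2.79% and 3.14% were called higher and 0.114%, 2.26% and 4.74% lower. In EV edgeR called 0 of the list, and DESeq2 5 higher and 1 lower. The scavenger receptor gene *marco* was at 27.2 RPM in OB, 210 and 251 in pOC, 20.3 and 21.0 in mOC, and 104 and 252 in EV. The actin-bundling gene *lcp1* was at 261 RPM in OB, 1088 to 1576 in pOC, 1575 to 2324 in mOC, and 726 to 782 in EV. The lysosomal gene *cd68* was at 215 RPM in OB, 860 and 776 in pOC, 594 and 805 in mOC, and 790 and 854 in EV. A copy of the perforin-like gene *mpeg1* was highest in OB, at 167 RPM, with 55.5 and 117 in pOC, 19.2 and 14.0 in mOC, and 38.5 and 36.3 in EV. Another *mpeg1* copy was called higher in pOC than in OB after quantile normalization, though not in the analysis reported. Copies of *mpeg1* and *mfap4* were among the 7 genes lower in mOC than in pOC. The 12 osteoclast marker genes summed to 3335 RPM in OB, 5996 to 6587 in pOC, 19322 to 19597 in mOC and 4199 to 4288 in EV, so that mOC stood above pOC for these genes but not for *csf1ra*.

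Xanthophore RNA was also present in the fractions with receptor RNA. The 10 xanthophore marker genes summed to 43.6 RPM in OB, 973 to 1075 in pOC, 1470 to 1664 in mOC and 207 to 225 in EV, with 6, 9, 9 and 6 of them above 3 reads in every library of the fraction. The pteridine synthesis gene *gch2* was at 0.94 RPM in OB, 326 and 309 in pOC, 596 and 406 in mOC, and 42.2 and 63.3 in EV. For this sum mOC lay above pOC without overlap, whereas both overlapped for *csf1ra*, and EV lay below them and OB was lowest. Of the 9 xanthophore genes tested 0 were called in mOC against pOC, where 4.42% of all genes were called. Their median there was 0.49 against -0.15, and 1 had an unadjusted p under 0.05 in limma. Against OB 7 were higher in mOC, 4 in pOC and 3 in EV, with 0 lower in each. Over all genes 3.14%, 1.28% and 2.79% were called higher. Counts of this list were not taken in the alternatives. The parts of macrophage, osteoclast and xanthophore RNA in the *csf1ra* level were not tested.

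**Figure D4:**
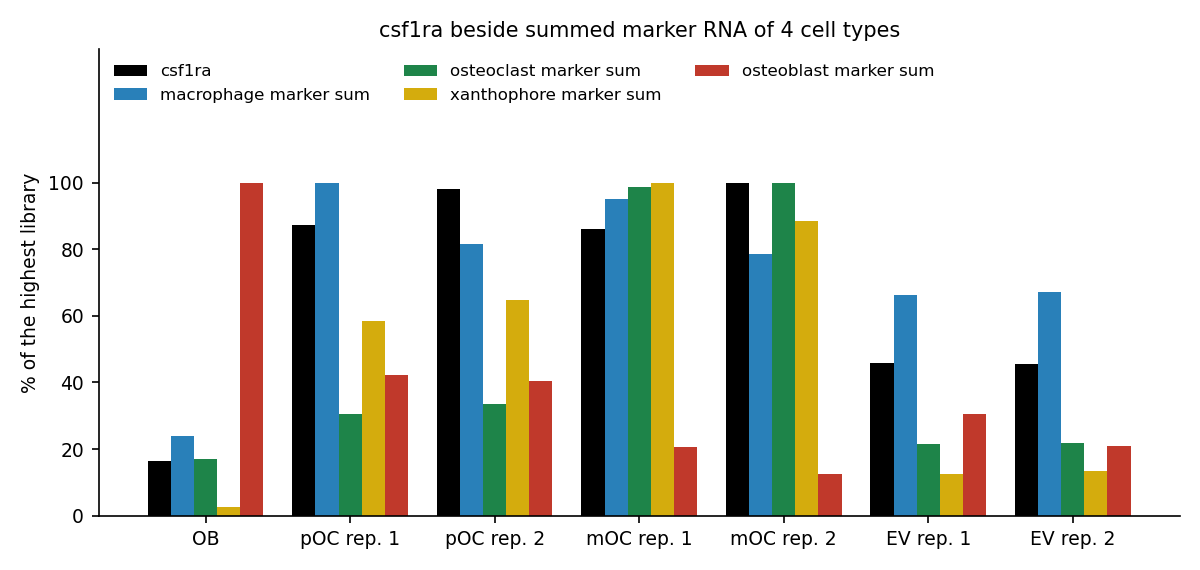
*csf1ra* and the summed RPM of macrophage, osteoclast, xanthophore and osteoblast marker genes in each library, as a percentage of the library where each is highest (bars from 0). *csf1ra* and the macrophage sum were high in all pOC and mOC libraries. The xanthophore sum was also higher in these than in OB and EV, and was highest in mOC. The osteoclast sum was highest in mOC, and the osteoblast sum was highest in OB.

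RNA of matrix-forming cells moved with the ligands *il34* and *csf1a*. The 17 osteoblast marker genes summed to 26301 RPM in OB, 10621 to 11130 in pOC, 3312 to 5386 in mOC and 5487 to 8058 in EV, with 16, 16, 15 and 14 of them above 3 reads in every library of the fraction. The 10 dermal fibroblast marker genes summed to 4336 RPM in OB, 1384 to 1541 in pOC, 184 to 325 in mOC and 1143 to 1286 in EV, in the same order as *il34*. Both lists hold collagen genes, and their parts in the ligand levels were not tested. Keratinocyte RNA had another order, with a sum of 8198 RPM in OB, 8466 in mOC replicate 2 and 9815 in EV replicate 1. In the last 2 libraries *il34* was at 56.7 and 70.3 RPM. The part of keratinocyte RNA in the ligand levels was not tested either.

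Other sums were low or did not have the order of a member. Neutrophil marker genes summed to 51.3 to 140 RPM with *lyz* listed at 0 in every library, lymphocyte genes to 0.15 to 11.6 with *lck* listed at 0, endothelial genes to 16.8 to 88.3, erythrocyte genes to 0 to 3.22, and iridophore genes to 33.4 to 192. Melanophore genes summed to 2.94 RPM in OB, 35.9 and 37.2 in pOC, and 38.7 and 49.1 in mOC.

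The genes most like each member across the 7 libraries were taken as those of highest Pearson r in log2(RPM + 1) among 8265 genes with a symbol and a mean of at least 5 RPM. The points share depth and fraction, so r is a description. For *csf1ra* these were *gpr143*, a gene of pigment organelles (r = 0.987, rho = 0.75), *sb:cb81* (0.986 and 0.893) and *gch2* (0.985 and 0.714), with 33 genes above 0.95. By rho, 247 genes ranked above *gpr143*, 30 above *sb:cb81* and 368 above *gch2*, so this ranking depends on the measure. The level of *gpr143* was 0.74 RPM in OB, 38.1 and 47.9 in pOC, 59.9 and 54.1 in mOC, and 9.46 and 15.1 in EV.

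For *il34* the genes most like it were *fst*, which encodes the activin antagonist follistatin (r = 0.994, rho = 1), *psd3l* (0.989 and 1) and *tnrc18* (0.985 and 0.964), with 57 genes above 0.95. The level of *fst* was 32.9 RPM in OB, 6.51 and 7.72 in pOC, 0.62 and 2.20 in mOC, and 2.65 and 2.77 in EV. For *csf1a* they were *wnt9a*, a Wnt ligand gene (0.995 and 1), *hspg2*, which encodes the matrix proteoglycan perlecan (0.991 and 1), and *inhba*, an activin subunit gene (0.985 and 0.964), with 56 genes above 0.95. *inhba* was at 180 RPM in OB, 59.9 and 77.6 in pOC, 12.4 and 12.2 in mOC, and 18.0 and 27.8 in EV. For *csf1b* they were *zgc:173709* (0.970 and 0.964), the cadherin family gene *cdh29* (0.970 and 1) and *tes* (0.968 and 0.955), with 17 genes above 0.95.

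The list of genes that relay the CSF1R signal inside the cell followed the receptor in part. Of 24 symbols 22 were matched and 20 genes were tested. In mOC against OB 5 were higher and 0 lower (3.14% of all tested genes were called higher and 4.74% lower), with a median log2 fold change of 0.89 against -0.15 over all tested genes. The kinase gene *src*, which OCs need to resorb bone in mice, was at 39.7 RPM in OB, 106 and 128 in pOC, 190 and 213 in mOC, and 105 and 110 in EV. Its difference of mOC from OB was 2.31 (SE 0.26, adjusted p = 0.00357).

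The adaptor gene *tyrobp*, which encodes DAP12, was at 1.87 RPM in OB, 10.4 and 13.0 in pOC, 57.2 and 75.2 in mOC, and 1.71 and 5.55 in EV. It was higher in mOC than in OB by 4.54 (SE 0.62, adjusted p = 0.00755) and than in pOC by 2.40 (SE 0.51, adjusted p = 0.0477), so that mOC stood apart from pOC for this gene where *csf1ra* did not. The adaptor gene *grb2b* (1.76, SE 0.29, adjusted p = 0.014) and the kinase gene *syk* (2.53, SE 0.43, adjusted p = 0.0155) were also higher in mOC than in OB. Only *src* stayed called when any 1 of the pOC or mOC libraries was left out, where calls over all genes also fell. With edgeR the count was 1, *src*, and with DESeq2 it was 5, where 1.7% and 9.18% of all genes were called.

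In pOC against OB the relay list had 1 gene called higher, *src* with 1.53 (SE 0.26, adjusted p = 0.0451), and 0 lower, where 1.28% of all genes were called higher and 0.114% lower, and its median was 1.28 against -0.03. In EV against OB 4 were higher and 0 lower, where 2.79% and 2.26% of all genes were called, with a median of 0.53 against -0.18. These were the phosphatase gene *ptpn6* (2.12, SE 0.37, adjusted p = 0.0292), the docking protein gene *dok2* (2.85, SE 0.49, adjusted p = 0.0292), *src* (1.42, SE 0.26, adjusted p = 0.0309) and *syk* (1.98, SE 0.43, adjusted p = 0.0482). All these calls were lost when any 1 of the pOC or mOC libraries was left out. More relay genes were called higher when an EV library was left out, and without EV replicate 2 EV also had a lower call. Calls over all genes fell and rose in the same way. The EV count was 0 with edgeR and 6 with DESeq2, where 0 and 7.57% of all genes were called. The pOC count was 4 after quantile normalization (2.68% of all genes called) and 3 with a replicate block (1.73%). It was 0 with a pseudocount of 0.1 RPM (1.01%). With a filter of at least 1 RPM in at least 1 library (1.02%) or no filter (0.328%) it was also 0.

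Between mOC and pOC the relay list had 1 gene higher, *tyrobp*, and 1 lower, the Src family gene *hck* with -2.98 (SE 0.59, adjusted p = 0.0379), where 0.757% and 3.66% of all genes were called. *hck* was at 15.1 RPM in OB, 42.6 and 49.5 in pOC, 4.63 and 5.25 in mOC, and 31.0 and 8.12 in EV. Neither was called when any 1 of the pOC or mOC libraries was left out, with a pseudocount of 0.1 RPM or with no filter, and *tyrobp* was also not called with a filter of at least 1 RPM in at least 1 library. In this comparison more genes were called lower without EV replicate 1 or EV replicate 2, as was also the case over all genes.

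Transcription factors that act on *csf1r* genes in mammals made up a further list. All 8 genes of this list were tested. In mOC against pOC, where *csf1ra* was not called, 5 of the 8 were lower and 0 higher (3.66% of all tested genes were called lower and 0.757% higher), with a median of -2.47 against -0.15 over all tested genes. *spi1a*, one paralog of the gene for the myeloid factor PU.1, was at 25.5 RPM in OB, 140 and 107 in pOC, 5.33 and 4.06 in mOC, and 60.1 and 49.5 in EV, and fell by 4.44 (SE 0.31, adjusted p = 0.00124) on the log2 scale. *cebpa*, a myeloid factor gene, was at 131 RPM in OB, 455 and 488 in pOC, 111 and 111 in mOC, and 967 and 890 in EV, and fell by 2.08 (SE 0.17, adjusted p = 0.0019).

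The macrophage factor gene *mafb* was lower in mOC than in pOC by -3.61 (SE 0.38, adjusted p = 0.00493) and the monocyte factor gene *irf8* by -2.87 (SE 0.34, adjusted p = 0.0073). *irf8* was at 16.1 RPM in OB, 75.7 and 63.8 in pOC, 7.65 and 9.73 in mOC, and 45.5 and 73.2 in EV, and *mafb* at 167 RPM in OB, 226 and 243 in pOC, 28.4 and 11.7 in mOC, and 143 and 142 in EV. The other PU.1 gene, listed as *spi1*, was not called in this comparison, at 108 RPM in OB, 593 and 554 in pOC, 713 and 779 in mOC, and 644 and 911 in EV. Without mOC replicate 1 or mOC replicate 2 only *cebpa*, *mafb* and *spi1a* stayed called, and without pOC replicate 1 or pOC replicate 2 these were lost too. Calls over all genes also fell in these fits.

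**Figure D5:**
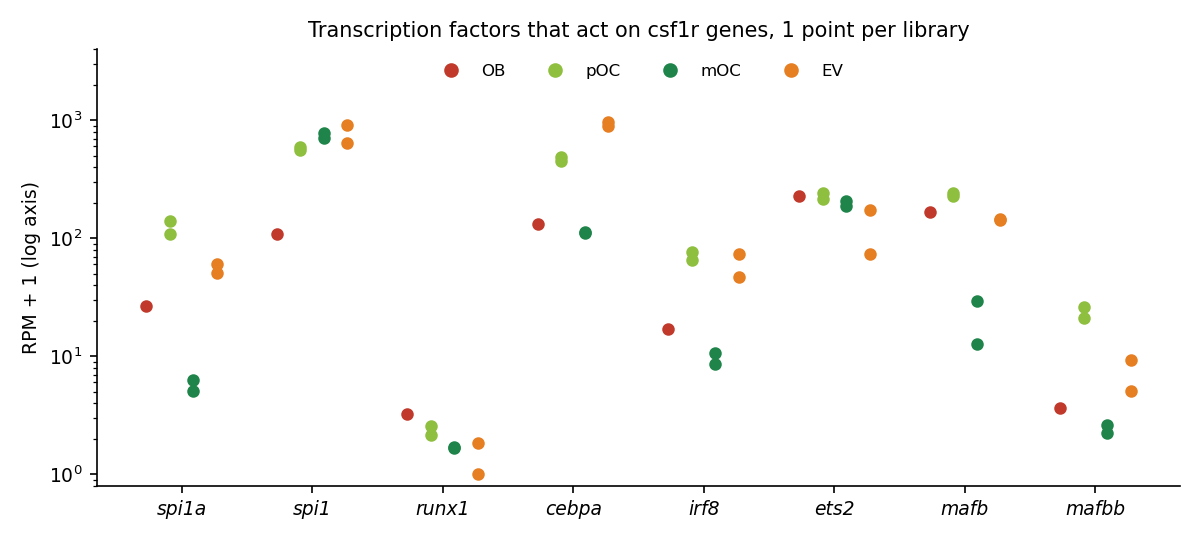
Level of the 8 transcription factor genes in each library (RPM + 1, log axis), coloured by fraction. *spi1a*, *cebpa*, *irf8*, *mafb* and *mafbb* were lower in both mOC libraries than in both pOC libraries, whereas *spi1* was not.

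Against OB the same list had 1 gene higher and 2 lower in mOC, where 3.14% of all genes were called higher and 4.74% lower, with a median of -0.70 against -0.15. *spi1* was higher by 2.78 (SE 0.25, adjusted p = 0.00197), *mafb* lower by -3.12 (SE 0.47, adjusted p = 0.00986) and *spi1a* lower by -2.23 (SE 0.37, adjusted p = 0.0149). *spi1a* was not called when any 1 of the pOC or mOC libraries was left out, nor *mafb* without pOC replicate 1 or pOC replicate 2. Calls over all genes also fell in these fits. The lower count was 0 with edgeR and 2 with DESeq2, where 1.7% and 9.18% of all genes were called in either direction. In pOC against OB 3 were higher and 0 lower, *spi1* (2.40, SE 0.25, adjusted p = 0.021), *cebpa* (1.84, SE 0.21, adjusted p = 0.021) and *spi1a* (2.22, SE 0.37, adjusted p = 0.0451), with a median of 1.95 against -0.03, where 1.28% of all genes were called higher and 0.114% lower. *spi1a* was not called with a pseudocount of 0.1 RPM or either looser filter. All 3 calls were lost when any 1 of the pOC or mOC libraries was left out, and more were gained without EV replicate 1 or EV replicate 2. Calls over all genes fell and rose in the same way.

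In EV against OB 2 of the 8 were higher and 0 lower, where 2.79% of all genes were called higher and 2.26% lower, with a median of 1.00 against -0.18. *spi1* and *cebpa* were both higher by 2.82 (SE 0.25 and 0.21, adjusted p = 0.0091 each). Both calls were lost without pOC replicate 1 or pOC replicate 2. *irf8* was also called higher without EV replicate 1 or EV replicate 2, and *ets2* lower without EV replicate 1. Calls over all genes fell and rose in the same way. The count was 0 with edgeR and 3 with DESeq2, where 0 and 7.57% of all genes were called. The direction of EV against OB was thus higher for *csf1ra*, for these 2 factors and for 4 relay genes. The macrophage sum was 2240 to 2277 RPM in EV and 807 in OB, and the osteoblast sum 5487 to 8058 in EV and 26301 in OB. The part of either cell type in these differences was not tested.

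Other proteins touch the axis without being CSF1R or its classical ligands. IL34 also binds the phosphatase PTPRZ1 and syndecan proteoglycans, and ADAM proteases release membrane CSF1 in mammals. Of 8 symbols of this list 7 were matched and all 7 genes were tested. In mOC against OB 2 were lower and 0 higher, the syndecan genes *sdc4* (-1.36, SE 0.27, adjusted p = 0.0268) and *sdc2* (-2.39, SE 0.51, adjusted p = 0.0334), with a median of -0.42 against -0.15, where 4.74% of all genes were called lower and 3.14% higher. *sdc2* was at 41.1 RPM in OB, 20.1 and 20.7 in pOC, 5.79 and 8.46 in mOC, and 26.6 and 14.0 in EV, and *sdc4* at 693 RPM in OB, 538 and 561 in pOC, 260 and 281 in mOC, and 717 and 479 in EV. Neither was called when any 1 of the pOC or mOC libraries was left out, nor with edgeR or with no filter, whereas DESeq2 called both.

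In the limma analysis reported no gene of this list was called in pOC against OB, where 1.39% of all genes were called. There 0 had an unadjusted p under 0.05, and the median was -0.34 against -0.03. In EV against OB (5.05% of all genes called) 0 were called and 0 had an unadjusted p under 0.05, with a median of -1.05 against -0.18. In mOC against pOC (4.42%) 0 were called and 2 had an unadjusted p under 0.05, with a median of -0.01 against -0.15. With a replicate block *sdc4* was called lower in mOC than in pOC, where 4.51% of all genes were called. In EV against OB DESeq2 called 1 gene lower, a *ptprz1* copy, and edgeR 0, where they called 7.57% and 0 of all genes. Without EV replicate 1 limma called *ptprz1* and *sdc2* lower in this comparison. Without EV replicate 1 or EV replicate 2 *sdc2* and *sdc4* were called lower in mOC than in pOC. Calls over all genes also rose in these fits.

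The class III receptor tyrosine kinases are the closest relatives of CSF1R. Of their receptor genes limma called *pdgfra* and *pdgfrb*, whereas *kit* was not called and was scattered, at 2.14 RPM in OB, 3.11 and 0 in pOC, 4.25 and 1.44 in mOC, and 28.4 and 0 in EV. All 14 symbols of the receptors and their ligands were matched to 15 genes, of which 9 were tested, and *kitb*, *kitlgb* and *flt3* were listed at 0 in every library. In mOC against OB 3 were lower and 0 higher, with a median of -1.63 against -0.15, where 4.74% of all genes were called lower and 3.14% higher. The mesenchymal receptor gene *pdgfra* was at 120 RPM in OB, 27.7 and 25.7 in pOC, 10.1 and 6.52 in mOC, and 11.9 and 15.4 in EV, and the difference of mOC from OB was -3.73 (SE 0.43, adjusted p = 0.00393). *pdgfrb* was at 90.6 RPM in OB, 19.9 and 25.6 in pOC, 4.25 and 3.47 in mOC, and 15.6 and 15.2 in EV, with a difference of -4.24 (SE 0.42, adjusted p = 0.00258).

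The ligand gene *pdgfc* was lower in mOC than in OB by -2.30 (SE 0.54, adjusted p = 0.0473). It was not called with a pseudocount of 0.1 RPM, either looser filter, a replicate block, no robust setting, edgeR or DESeq2. The call was also lost when any 1 of the pOC or mOC libraries was left out. In EV against OB *pdgfra* (-3.06, SE 0.43, adjusted p = 0.0174) and *pdgfrb* (-2.48, SE 0.42, adjusted p = 0.0281) were lower and 0 genes higher, with a median of -0.71 against -0.18, where 2.26% of all genes were called lower and 2.79% higher. In mOC against pOC only *pdgfrb* was called in limma, lower by -2.28 (SE 0.35, adjusted p = 0.0152). The median was -0.94 against -0.15, where 3.66% of all genes were called lower and 0.757% higher. In pOC against OB 0 genes were called, 3 having an unadjusted p under 0.05, with a median of -0.69 against -0.03. There *pdgfra* was called lower with a pseudocount of 5 RPM (1.54% of all genes called) and after quantile normalization (2.68%).

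With any 1 of the pOC or mOC libraries left out, *pdgfra* and *pdgfrb* stayed called in mOC against OB. The calls in EV against OB and mOC against pOC were lost. Leaving out either EV replicate gave more lower genes in mOC against OB, mOC against pOC and pOC against OB. In EV against OB this was so only without EV replicate 1, and without EV replicate 2 *kit* and *kitlga* were called higher. Calls over all genes fell without a pOC or mOC library and rose without an EV library. In EV against OB edgeR called 0 and DESeq2 2, where they called 0 and 7.57% of all genes.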

How the data were processed

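The authors amplified RNA of sorted fractions by Quartz-Seq, a PCR method that primes polyadenylated RNA and adds no molecular identifiers, prepared Nextera XT libraries and sequenced them on a NextSeq500. Per the labels, reads were processed with HISAT2 2.1.0, Subread 1.6.4 and GRCz11. The deposited values are RPM per Ensembl gene to 2 decimals, computed by the authors. The release of the annotation, and whether strand was used in counting, is not given in the sources used here, so reads of overlapping or antisense genes and of near-identical paralogs cannot be told apart.

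RPM values were used without further scaling. In the libraries other than pOC, 99.9 to 100% of values came within 0.005 RPM of a whole number of reads, and these recovered reads gave depth and the level of 3 reads. In pOC 1 read is worth 0.0409 to 0.0411 RPM, so that rounding reaches 12.2% of 1 read, where it reaches 10.2% in EV. The share of values near a whole number was 99.975 and 99.9875% in pOC, no lower than elsewhere, but its reads served for depth only. Depth was 14900000 reads in OB, 24400000 and 24300000 in pOC, 12900000 and 11800000 in mOC, and 20400000 and 20200000 in EV. Intervals and limits from reads cover counting error only.

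limma 3.58.1 (trend and robust, R 4.3.3) was run on log2(RPM + 1) of 14006 genes in 1 fit of 4 fractions with 3 residual degrees of freedom. Each fraction was compared with the mean of the other 3 and with each other fraction, 10 comparisons with p-values adjusted within each by Benjamini-Hochberg. Every adjusted p in the text is from limma unless edgeR 4.0.16 or DESeq2 1.42.0 is named. Both count tools took the recovered reads of OB, mOC and EV, 5 libraries in all. That the replicates came from separate fish is stated only as biological replicates, so p-values measure the spread between these libraries.

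Alternatives were pseudocounts of 0.1 and 5 RPM, looser filters, quantile normalization, a replicate block, no robust setting and each library left out. Named genes are the 5 members, the 3 genes most like each, up to 4 called genes of smallest p per list and defining markers. Members and lists were chosen with earlier results of these data known. Symbols came from a gene-name table covering 28988 genes, in which some paralogs lack their last letter. Python 3.11.15 was used for summaries. Sequences and gene lengths were not used here.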

Additional observations from a re-analysis of the deposited data

How the results depend on the processing

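Directions of *csf1ra*, *il34* and *csf1a* were kept in the alternatives run, except for *csf1ra* in mOC against pOC, which ran from -0.11 to 0.11 with single libraries left out. *csf1b* reversed in each comparison with single libraries left out. Its log2 fold change then ran from -0.072 to 1.34 in OB, -0.65 to 0.97 in pOC, -0.28 to 1.13 in mOC and -3.34 to 0.90 in EV against the mean of the others, from -0.61 to 1.01 in mOC against pOC, -0.73 to 0.41 in mOC against OB, -1.17 to 0.46 in pOC against OB, and in EV from -3.51 to 0.73 against OB, -3.15 to 1.08 against pOC and -3.35 to 0.88 against mOC. In pOC against the mean of the others it was -0.0076 after quantile normalization, and in mOC against OB it was 0.12 after quantile normalization, 0.095 with edgeR and 0.10 with DESeq2.

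With single libraries left out, the number of called members ran from 0 to 3 in OB, 0 to 1 in pOC, 0 to 3 in mOC and 0 to 1 in EV against the mean of the others, from 0 to 2 in mOC against pOC, 2 to 3 in mOC against OB, 0 to 2 in pOC against OB, 0 to 4 in EV against OB, 0 to 2 in EV against pOC and 0 to 2 in EV against mOC. It was 1 in pOC against the mean of the others after quantile normalization and 0 in mOC against pOC with no filter. With edgeR it was 1 in mOC against OB, 0 in EV against OB and 0 in EV against mOC, where DESeq2 changed no call of a member. In EV against mOC the number was also 0 with a pseudocount of 5 RPM. The cause was not tested.

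Over all genes the calls with single libraries left out ran from 0 to 2132 in OB (587 in the analysis reported), 0 to 331 in pOC (34), 251 to 2636 in mOC (1350) and 1 to 2885 in EV (889) against the mean of the others, and from 0 to 1578 in mOC against pOC (619), 227 to 2481 in mOC against OB (1104), 0 to 1045 in pOC against OB (195), 0 to 2945 in EV against OB (707), 0 to 1639 in EV against pOC (5) and 248 to 3606 in EV against mOC (1635). Calls rose when an EV library was left out and fell when a pOC or mOC library was. Without a filter they were 0 in pOC, 870 in mOC and 222 in EV against the mean of the others, 229 in mOC against pOC, 78 in pOC against OB, 0 in EV against pOC and 915 in EV against mOC. After quantile normalization they were 76 in pOC against the mean of the others, 376 in pOC against OB and 33 in EV against pOC. Pseudocounts of 0.1 and 5 RPM gave 0 and 15 in EV against pOC, and 0.1 RPM gave 14 in pOC against the mean of the others. edgeR gave 238 in mOC against OB, 0 in EV against OB and 297 in EV against mOC, where DESeq2 gave 1285, 1060 and 1833. Beside each count of 0, 531 to 3008 genes had an unadjusted p under 0.05. In mOC against OB 39.9% of calls were higher in limma and 50.3% in DESeq2. Quantile normalization moved the median of all genes from -0.15 to 0.06 in mOC against OB and from -0.18 to 0.06 in EV against OB, and turned no direction of a called member.

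Deviations of same-numbered libraries from their fraction means correlated at 0.17 for pOC and mOC, 0.07 for pOC and EV and 0.07 for mOC and EV, so the numbers were not taken as pairs. With a replicate block *csf1a* was also called in OB against the mean of the others (2.61, adjusted p = 0.0378) and in EV against OB (-2.75, adjusted p = 0.0433), no other call of a member changed, and 24 genes were called in EV against pOC and 53 in pOC against the mean of the others.

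With OB as 1 library, a spread within OB could not be measured, and a fit without it gives no OB comparison. Comparisons with pOC were not run in edgeR or DESeq2. Levels per gene length were planned but not run, because no exon lengths of the build were among the references. *csf1a* in mOC rests on 19 and 26 reads, and *csf1rb* on at most 2.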
